A study of Rattus norvegicus with 12 samples.

Results

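The genes of the interferon response and of antigen presentation were described here in the striatum of rats that had self-administered methamphetamine (MA). A list of 48 gene symbols was matched to the 17337 genes of the count table, and 45 of them were found, while *Ifnar2*, *Xaf1* and *Nlrc5* matched no symbol. The members comprised 3 interferon receptor genes, 7 transcription factors, 7 genes of RNA sensing, 21 antiviral effectors and 7 genes of antigen presentation. Expression was measured by RNA sequencing of polyadenylated RNA, with 1 library from the striatum of each of 12 adult male Sprague-Dawley rats, all labelled wild type and treated with MA. All rats are described as having had 16 days of MA self-administration. The MA12 group held 4 rats (21, 31, 4N and 7N) in abstinence for 12 h and the MA24 group 4 rats (9N, 14N, 15N and 16N) in abstinence for 24 h. A further 4 rats (9, 11, 12 and 13) are labelled non-addicted, with no hour of abstinence given and no criterion for the name. In these lists of rats the order is the one in which values are given throughout. Saline rats were not analysed here, so no level can be set against a drug-free one. The MA12 and MA24 rats differ by 12 h in the time after the last session, so abstinence and hour of the day cannot be told apart. The rat numbers end in N in all 4 MA24 rats, in 2 of the 4 MA12 rats and in 0 of the 4 non-addicted rats, so the type of number and the group cannot be told apart between non-addicted and MA24.

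Interferons are secreted proteins that cells release when sensors such as RIG-I and MDA5 detect foreign or misplaced RNA or when other sensors detect DNA. The RNA sensors act through the adaptor MAVS and DNA sensing through the adaptor STING on transcription factors such as IRF3 and IRF7, which switch on type I interferon genes. Secreted type I interferon binds the receptor formed by IFNAR1 and IFNAR2, and a complex that contains STAT2 and IRF9 then binds the interferon-stimulated response element (ISRE) of target genes. Interferon gamma binds IFNGR1 and IFNGR2, and its signal reaches a different element, the gamma-activated site (GAS). Targets include antiviral effectors and the machinery that cuts proteins into peptides, moves them by the transporter TAP and displays them on MHC class I. In brain tissue, microglia, astrocytes, endothelial cells and neurons can all carry out parts of this response. In a whole-tissue sample such as this one, fewer cells of a type and less RNA per cell cannot be told apart.

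Between 17908962 and 23850284 reads were counted per rat, and rats of the same group differed by more than counting noise (chi-square per degree of freedom from 9.72 to 28.0 over the pairs within groups). Within-group rank correlations across genes were at least 0.989. The 10 markers of striatal projection neurons were present in all libraries, with a summed level between 13973 and 18445 CPM, as the tissue label implies. The mean count of the members over the 12 rats ran from 9.42 (*Tap2*) to 4993 (*B2m*), and 10 of the 45 members had a mean count below 50, which leaves a large counting error. Levels are given as log2 CPM, the count scaled to the size of its library, which can be compared between rats but not between genes, because transcript lengths were not used.

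The promoters of the members were examined first, since they show what the genes share in sequence. For 37 of the 45 members RefSeq (build GRCr8) gave 300 bases around the annotated start, from 250 before it to 50 after it. No entry was matched for *Irf2*, *Ddx58*, *Dhx58*, *Adar*, *Isg15*, *Mx2*, *Ifit2* and *Usp18*. An ISRE core, spelled GAAA, then any 2 bases, then GAAA, and searched on both strands, was present in 22 of the 37 promoters (59.5%), against 3.92% of 33469 rat promoters and 3.0% of the 12187 whose gene is in the count table. A GAS core, spelled TTC, then any 3 bases, then GAA, which reads alike on both strands, was present in 8 of 37 (21.6%), against 8.87% of all promoters and 7.12% of those in the count table. Matches of the ISRE core overlapped each other in *Oas1a*, *Bst2* and *Tapbp*, and in *Bst2* they also overlapped the GAS core. Members were counted once per gene, and the background once per promoter entry. The members were listed as genes of the interferon response and antigen presentation, so a high share follows from the choice of genes. A match is a description of letters and does not say that a factor bound there in these rats. The ISRE core was most frequent in the effector genes (13 of 17) and the antigen presentation genes (6 of 7). It was present in 2 of 4 genes of RNA sensing, in 1 of 6 transcription factors (*Irf7*) and in 0 of 3 receptor genes.

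**Figure D1:**
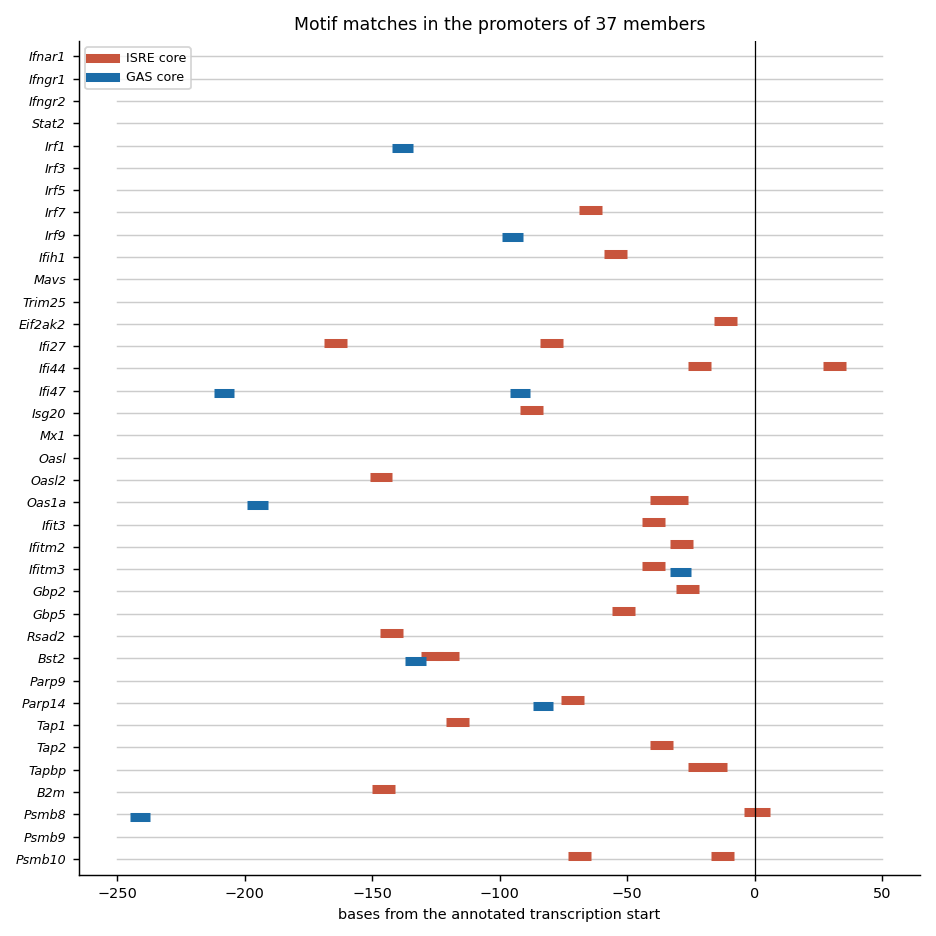
Positions of ISRE cores (red) and GAS cores (blue) in the promoters of 37 members, in bases from the annotated transcription start, one line per gene. ISRE cores lie in 22 promoters, mostly within 150 bases before the start, and no receptor gene has a match of either kind.

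The stretches below belong to the genes whose levels are described in detail, and capitals mark the motif letters. *Ifi27* (chr6:128355132-128355311, plus strand) holds an ISRE core at 2 places, and *Psmb10* (chr19:50743293-50743382, minus strand) likewise. *Ifi44* (chr2:243303841-243303900, minus strand) and *Irf7* (chr1:205800024-205800113, minus strand) carry the core read from the opposite strand, and *B2m* (chr3:129549170-129549329, plus strand) carries it once in the given strand. *Irf9* (chr15:33065716-33065835, plus strand) has a GAS core and no ISRE core, and *Irf3* (chr1:104616508-104616607, plus strand) has neither. All are written 5′ to 3′ on the strand of the gene and end at the base before the annotated start, so a further ISRE core of *Ifi44* after its start is not shown.
Ifi27: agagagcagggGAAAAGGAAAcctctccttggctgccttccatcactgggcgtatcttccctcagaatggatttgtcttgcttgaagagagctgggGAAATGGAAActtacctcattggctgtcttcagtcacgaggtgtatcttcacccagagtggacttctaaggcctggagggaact
Ifi44: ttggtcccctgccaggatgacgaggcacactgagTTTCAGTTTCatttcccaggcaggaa
Irf7: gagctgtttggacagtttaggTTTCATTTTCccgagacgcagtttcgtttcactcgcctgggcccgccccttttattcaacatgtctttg
Psmb10: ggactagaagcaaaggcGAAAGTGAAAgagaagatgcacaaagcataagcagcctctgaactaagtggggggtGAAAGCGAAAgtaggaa
B2m: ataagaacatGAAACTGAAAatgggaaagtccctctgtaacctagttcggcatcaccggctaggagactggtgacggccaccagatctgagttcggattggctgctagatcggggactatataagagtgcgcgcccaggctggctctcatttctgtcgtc
Irf9: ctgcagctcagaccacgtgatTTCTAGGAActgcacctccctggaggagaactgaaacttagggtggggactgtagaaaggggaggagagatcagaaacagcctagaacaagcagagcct
Irf3: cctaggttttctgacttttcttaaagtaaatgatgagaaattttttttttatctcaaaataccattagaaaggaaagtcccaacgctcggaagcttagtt

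The comparison of MA24 with MA12 asks how the members differ between 12 h and 24 h of abstinence. *Irf3* and *Ifi27* were higher in MA24 than in MA12 by the criteria used for all genes, an adjusted p below 0.05 and a fold change of at least 1.5. They were 2 of the 43 members tested, both higher, where 2.45% of all genes tested were called, 0.735% higher and 1.72% lower. *Ifnar1* and *Mavs* were removed by the filter on low variance. Of the 43 members, 29 had a log2 fold change above 0 and 14 below it, with a median of 0.11 against -0.02 over all genes tested. At an unadjusted p below 0.05 there were 7 members, all higher in MA24 (*Irf3*, *Irf7*, *Irf9*, *Ifi27*, *Ifi44*, *Usp18* and *Psmb10*). That is 16.3% of the members tested, below the 23.6% of all genes tested, while the 7 all lie on the higher side, where 10.5% of all genes lay, against 13.1% on the lower side. The groups did not overlap for 5 members (11.6%), all higher in MA24. Of all genes tested, 7.16% lay apart on the higher and 8.40% on the lower side, and both sides together exceed the members' share. The 2 calls became 1 without rat 31 or 15N and 0 without rat 4N, 14N or 16N, and the 7 members became 4 without rat 7N.

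*Irf3* encodes the transcription factor that RNA and DNA sensors activate to start interferon synthesis. Its counts were 742, 714, 553 and 589 in the MA12 rats, 931, 1108, 788 and 1006 in the MA24 rats and 716, 788, 1001 and 561 in the non-addicted rats. Every MA24 rat lay above every MA12 rat, and the non-addicted rats spread from the MA12 range into the MA24 range. The level was 4.91 ± 0.15 log2 CPM in MA12, 5.54 ± 0.24 in MA24 and 5.19 ± 0.22 in non-addicted rats (SD, n = 4 each). *Irf3* was 1.57-fold higher in MA24 than in MA12 (log2 fold change 0.65, SE 0.12, adjusted p = 0.00875, edgeR's quasi-likelihood test). The exact permutation test gave p = 0.0286, the smallest that 70 splits of 4 against 4 rats allow. Without rat 4N, 14N or 16N the log2 fold change lay between 0.56 and 0.58, just under the 1.5-fold limit, while the adjusted p stayed at or below 0.0284 (edgeR). When the fit also held a term for the type of number (with or without N), it was 0.66, with an adjusted p of 0.0682 (edgeR). Among rats numbered with N alone, 2 in MA12 and 4 in MA24, it was 0.68, with an adjusted p of 0.0263 (edgeR). *Irf7*, which amplifies interferon synthesis and is itself induced by interferon, had 107, 139, 90 and 41 counts in MA12, 138, 233, 140 and 76 in MA24 and 46, 115, 193 and 189 in non-addicted rats. These ranges overlapped, and *Irf7* was at a log2 fold change of 0.76 ± 0.30 (SE) with an adjusted p of 0.129 (edgeR) in MA24 against MA12.

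*Ifi27* encodes a small hydrophobic membrane protein found in mitochondria and is a widely used marker of type I interferon exposure. It had 1917, 1184, 1060 and 755 counts in the MA12 rats, 1399, 2236, 1986 and 1735 in the MA24 rats and 786, 988, 1183 and 1009 in the non-addicted rats. MA12 rat 21 lay above MA24 rat 9N, so these groups overlapped, and in log2 CPM the other 3 MA12 rats lay within the non-addicted range. *Ifi27* was at 5.76 ± 0.40 log2 CPM in MA12, 6.47 ± 0.39 in MA24 and 5.57 ± 0.15 in non-addicted rats (SD, n = 4 each). It was 1.63-fold higher in MA24 than in MA12 (log2 fold change 0.71, SE 0.18, adjusted p = 0.0276, edgeR), and the exact permutation test gave p = 0.0571. This call was lost by DESeq2 (adjusted p = 0.0649), with at least 10 counts required in each library (adjusted p = 0.0566, edgeR), with no filter on variance (adjusted p = 0.0599, edgeR) and without rat 31, 4N, 14N, 15N or 16N, with adjusted p-values between 0.0514 and 0.0703 (edgeR). Among rats numbered with N alone the log2 fold change was 0.99 (adjusted p = 0.00205, edgeR). That fit leaves out MA12 rats 21 and 31, of which rat 21 was the high one, and so sets 2 MA12 rats against 4 MA24 rats. The family member *Ifi27l2b*, a gene with fewer counts that may share reads with it, had a log2 fold change of 0.79 and an adjusted p of 0.225 (edgeR).

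**Figure D2:**
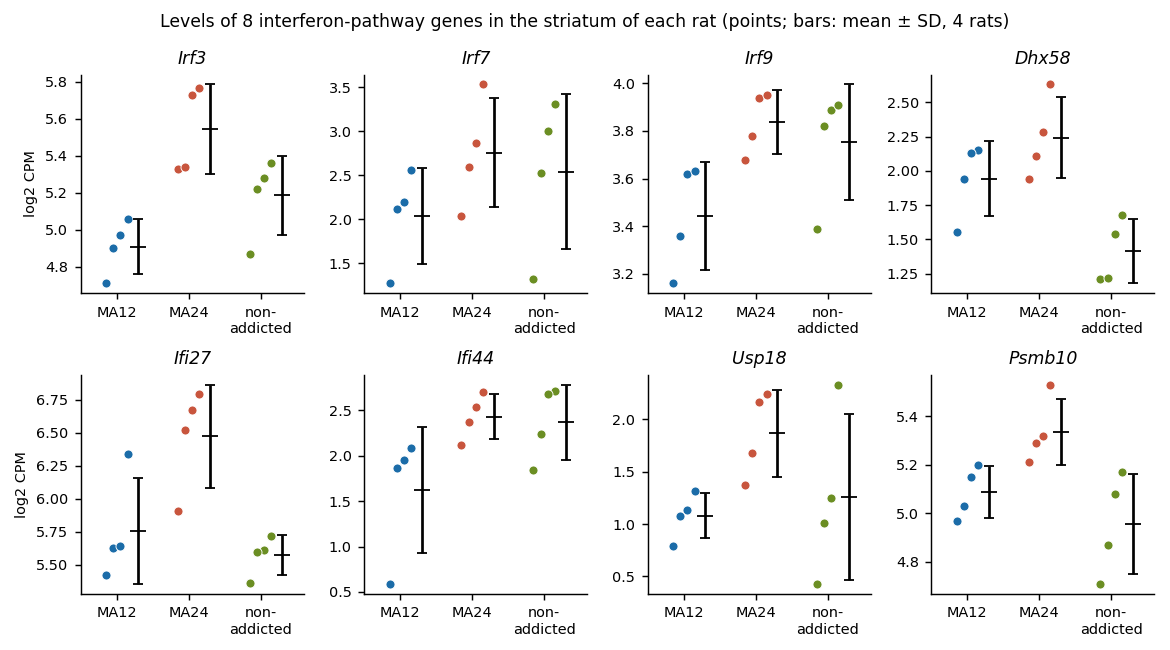
Levels of 8 members in log2 CPM (vertical axes, each with its own range) for the 4 rats of each group (points), with the mean and SD beside them as bars. *Irf3* and *Ifi27* were called higher in MA24 than in MA12, and the 4 non-addicted rats lie below the 4 MA24 rats for *Ifi27*, *Dhx58* and *Psmb10*.

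The other members whose MA24 rats all lay above the MA12 rats missed the adjusted threshold. *Irf9*, the DNA-binding part of the complex that type I interferon activates, had 290, 294, 216 and 157 counts in MA12, 295, 310, 300 and 258 in MA24 and 200, 285, 358 and 287 in non-addicted rats. Its highest MA12 level (3.63 log2 CPM) lay just under its lowest MA24 level (3.68), at a log2 fold change of 0.39 ± 0.15 (SE) and an adjusted p of 0.126 (edgeR). *Ifi44*, an effector that restrains viral replication, had 98, 85, 80 and 25 counts in MA12, 99, 130, 111 and 96 in MA24 and 67, 131, 154 and 89 in non-addicted rats. The MA12 rat 7N stood far below the rest, and the log2 fold change of 0.73 ± 0.28 (SE) had an adjusted p of 0.126 (edgeR). *Usp18* encodes the protease that removes ISG15 from proteins and damps signalling at the interferon receptor. It had 57, 50, 43 and 29 counts in MA12, 58, 94, 86 and 59 in MA24 and 24, 39, 120 and 44 in non-addicted rats, so that the non-addicted rats spanned all values of the other groups. Its log2 fold change in MA24 against MA12 was 0.84 ± 0.29 (SE), with an adjusted p of 0.0899 (edgeR) and of 0.0436 by DESeq2.

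Non-addicted rats were set against MA24 rats next, 1 member being called. *Ifi27* was 1.91-fold lower in non-addicted than in MA24 rats (log2 fold change -0.94, SE 0.14, adjusted p = 0.0241, edgeR), and every non-addicted rat lay below every MA24 rat (exact permutation p = 0.0286). Of the genes tested, 0.456% were called, 0.326% higher and 0.130% lower, and 43 members were tested, as *Ifngr1* and *Irf2* were removed by the variance filter. The call was lost in 5 of 15 alternatives, with the direction unchanged in all 15. These were the fits without rat 12 (adjusted p = 0.0634) or rat 15N (adjusted p = 0.0507), with at least 10 counts required in each library (0.0628), with no filter on variance (0.0669) and to the 3 groups jointly (0.0664), all in edgeR's test. In the last 3 of these, 0 of all genes tested were called by that test, with 2146, 2229 and 2066 at an unadjusted p below 0.05. Without rat 12 likewise 0 of all genes tested were called, and without rat 15N 1 was. This comparison and the preceding one share the MA24 rats, so both directions of *Ifi27* rest on the same 4 high values. At an unadjusted p below 0.05 there were 5 members (11.6%), 4 of them lower (*Irf3*, *Dhx58*, *Ifi27* and *Psmb10*) and 1 higher (*Adar*), against 17.5% of all genes tested (9.33% higher and 8.16% lower). Over the 43 members the median log2 fold change was -0.12, with 31 below 0 and 12 above, against 0.00 over all genes tested. The groups did not overlap for 4 members (9.30%), all lower in non-addicted rats (*Dhx58*, *Ifi27*, *Oasl* and *Psmb10*). Of all genes tested, 4.90% lay apart on the lower and 5.10% on the higher side, and both sides together are close to the members' share. *Oasl* lay apart in log2 CPM only, at 4 to 14 counts in non-addicted and 12 to 20 in MA24 rats, with an unadjusted p of 0.0871 (edgeR).

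*Dhx58* encodes LGP2, a helicase that modulates RNA sensing by RIG-I and MDA5. It had 54, 63, 54 and 43 counts in non-addicted rats, 87, 124, 93 and 80 in MA24 and 89, 68, 92 and 76 in MA12. All non-addicted rats lay below all MA24 rats, and MA12 rat 31 lay within the non-addicted range in log2 CPM. The difference from MA24 was 1.82-fold (log2 fold change -0.87, SE 0.25), with an adjusted p of 0.112 by edgeR's quasi-likelihood test, 0.0480 by its likelihood ratio test and 0.0426 by DESeq2. The difference from MA12 was -0.56 ± 0.26 (SE) on the log2 scale, with an adjusted p of 0.391 (edgeR). *Psmb10* encodes a catalytic subunit that interferon gamma places in the immunoproteasome. Its counts were 558, 682, 637 and 691 in non-addicted rats, 926, 933, 760 and 698 in MA24 and 844, 777, 781 and 554 in MA12. In log2 CPM the non-addicted rats all lay below the MA24 rats, which in turn all lay above the MA12 rats, with 5.17 and 5.20 as the highest levels of those groups and 5.21 as the lowest MA24 level. The log2 fold changes were small, at -0.38 ± 0.12 (SE) for non-addicted against MA24 (adjusted p = 0.133, edgeR) and 0.25 ± 0.11 for MA24 against MA12 (adjusted p = 0.159, edgeR).

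Between non-addicted and MA12 rats 0 of the 44 members tested were called by edgeR's quasi-likelihood test, and likewise 0 by DESeq2 and by edgeR's likelihood ratio test, where 0.251% of all genes tested were called. *B2m* was removed by the variance filter. At an unadjusted p below 0.05 there were 4 members (9.09%, against 12.3% of all genes tested, 5.31% higher and 7.03% lower), with *Irf3*, *Ifi44* and *Mx1* higher and *Dhx58* lower in the non-addicted rats. The groups did not overlap for 0 members, whereas 3.50% of all genes tested lay apart on the higher and 3.60% on the lower side. The median log2 fold change of the members was -0.04, with 20 above 0 and 24 below, against -0.01 over all genes tested. *Mx1*, a GTPase that blocks incoming viruses, was at 5, 19, 29 and 18 counts in non-addicted rats, 7, 12, 2 and 2 in MA12 and 23, 17, 4 and 7 in MA24. Its log2 fold change of 1.67 ± 0.63 (SE) against MA12 rests on few reads and had an adjusted p of 0.282 (edgeR). Without non-addicted rat 9 the number of members at an unadjusted p below 0.05 was 8, all of them higher in the non-addicted rats, and without rat 12 it was 1.

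**Figure D3:**
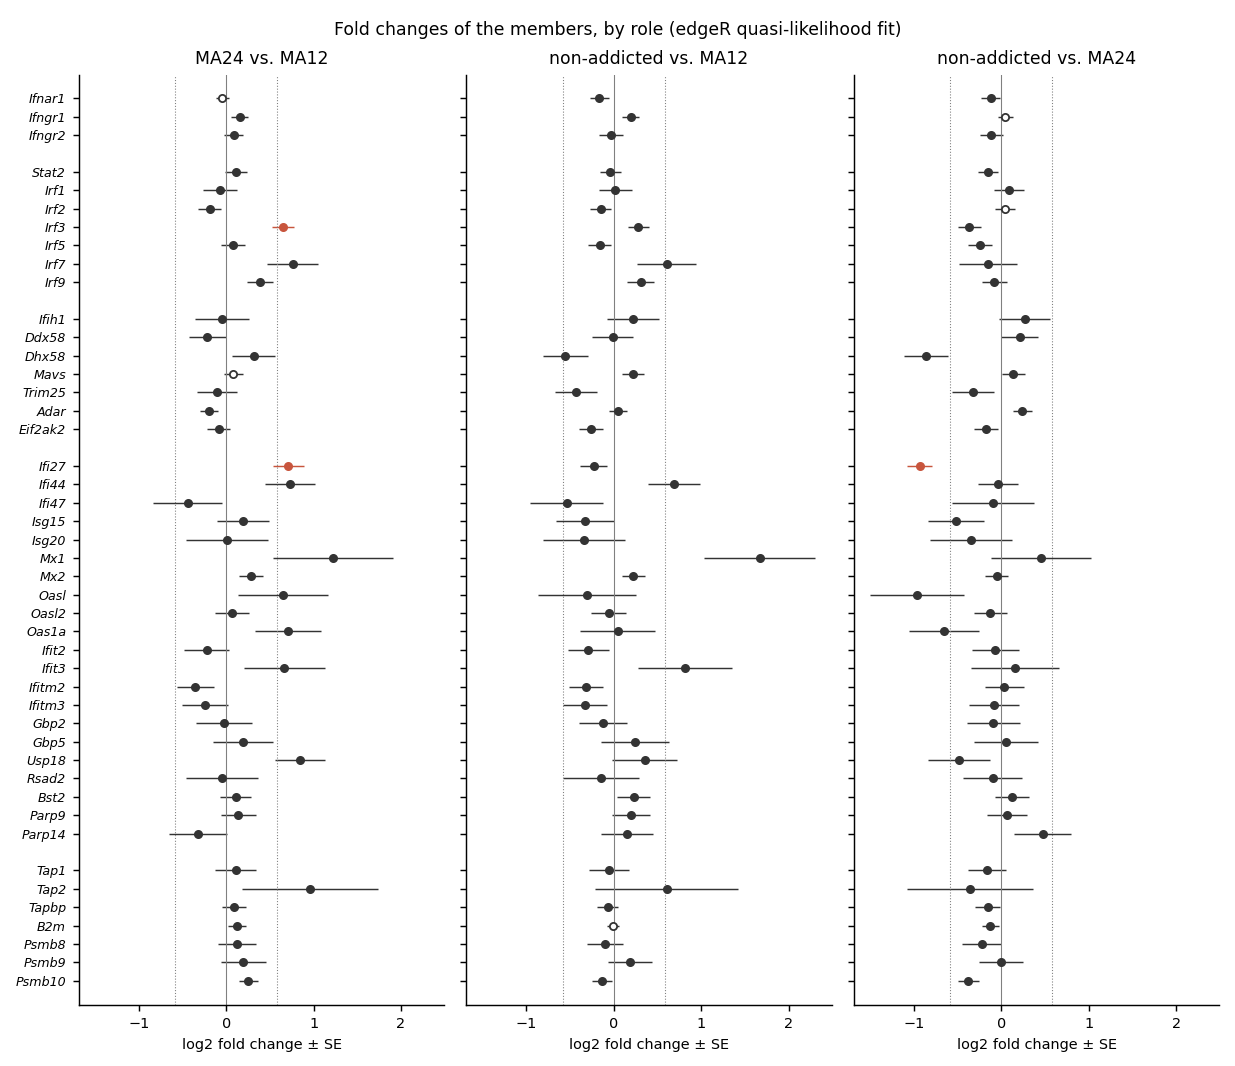
Log2 fold change (points, horizontal axis) with SE (bars) of each of the 45 members in the 3 comparisons, grouped from top to bottom as receptors, transcription factors, RNA sensing, effectors and antigen presentation. Red marks the called members, open points those removed by the variance filter and dotted lines a 1.5-fold change, and most members lie between these lines.

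By role, 0 receptor and 0 RNA-sensing genes were called in the 3 comparisons by edgeR's quasi-likelihood test, and at an unadjusted p below 0.05 there were *Dhx58* and *Adar* among the RNA-sensing genes and no receptor gene. DESeq2 called *Dhx58* in non-addicted against MA24. The 3 receptor genes had log2 fold changes between -0.17 and 0.19 in the 3 comparisons. The one with the most counts, *Ifnar1*, which encodes a chain of the type I receptor, had 1846, 2129, 1878 and 1377 counts in MA12, 1855, 1559, 1613 and 1559 in MA24 and 1131, 1503, 1985 and 1591 in non-addicted rats. Its levels overlapped in all pairs of groups. Among the 7 transcription factors tested in MA24 against MA12, 3 had an unadjusted p below 0.05 (*Irf3*, *Irf7* and *Irf9*), all higher. Of all genes tested there, 23.6% did, 10.5% higher and 13.1% lower, and a share of 7 genes is too coarse to set against this. The median log2 fold change of the 7 was 0.11, against -0.02 over all genes tested. The 6 RNA-sensing genes tested in that comparison had a median of -0.10, with 1 above 0 and 5 below. *Adar*, which edits adenosine to inosine in double-stranded RNA and so keeps cellular RNA from being sensed, had 3119, 3575, 2747 and 2130 counts in MA12, 3003, 1950, 2210 and 2331 in MA24 and 2209, 3073, 3578 and 2592 in non-addicted rats. The groups overlapped, and the log2 fold change for non-addicted against MA24 was 0.24 ± 0.11 (SE, adjusted p = 0.275, edgeR).

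Of the antigen presentation genes, *Psmb10* alone reached an unadjusted p below 0.05 in a comparison. *B2m*, the light chain of every MHC class I molecule, had 5056, 5684, 5289 and 4023 counts in MA12, 5028, 5828, 4934 and 4793 in MA24 and 4238, 4776, 5798 and 4467 in non-addicted rats. Its levels were 7.85 ± 0.10, 7.97 ± 0.17 and 7.86 ± 0.05 log2 CPM (SD, n = 4 each), with overlapping ranges. All 7 genes of the list had a log2 fold change above 0 in MA24 against MA12 (median 0.13) and below 0 in non-addicted against MA24 (median -0.16). *Psmb9* was at -0.0023 ± 0.25 (SE) in the latter. In either comparison 0 were called by edgeR's test or DESeq2, with *Psmb10* at an unadjusted p below 0.05 in both, and these comparisons share the MA24 rats. In non-addicted against MA12, 2 of the 6 tested lay above 0 and 4 below (median -0.06). *Psmb8* and *Psmb9*, the other immunoproteasome subunits, had log2 fold changes of 0.12 ± 0.22 and 0.19 ± 0.26 (SE) in MA24 against MA12. *Tap2*, a subunit of the peptide transporter, was between 0 and 22 counts per rat. It had 7, 16, 4 and 0 counts in MA12 and 18, 4, 4 and 22 in MA24, so rats of a group differed widely. Its log2 fold change of 0.96 ± 0.78 (SE) in MA24 against MA12 was not resolved. The 21 effectors had a median log2 fold change of 0.14 in MA24 against MA12, -0.06 in non-addicted against MA12 and -0.08 in non-addicted against MA24.

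Members with and without an ISRE core in the promoter had similar medians. With the core, the median log2 fold change was 0.11 in MA24 against MA12 (22 members tested) and 0.14 for members without the core (13 tested). The corresponding medians were -0.06 and 0.02 for non-addicted against MA12, and -0.13 and -0.10 for non-addicted against MA24. Of the called genes, *Ifi27* has the core at 2 places and *Irf3* has none in this window.

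The spread between rats of the same group was large among the effectors, and the same rats were low or high for many of them. Non-addicted rat 9 was the lowest of its group for 31 of the 45 members and for 18 of the 21 effectors, while it was the lowest for 30.0% of all genes with enough counts. In the MA12 group, rat 7N was the lowest for 26 of 45 members and 13 of 21 effectors, against 25.5% of all genes. Non-addicted rat 12 was the highest of its group for 20 of 45 members and 12 of 21 effectors, against 20.7% of all genes, and MA12 rat 31 the highest for 22 of 45 members, against 24.0%. The mean effector level, centred per gene on the 12 rats, was -0.68 in rat 9 and 0.39 in rat 12 on the log2 scale, both non-addicted. In the MA12 group it was -0.07, 0.15, -0.02 and -0.41, and in the MA24 group 0.01, 0.34, 0.31 and -0.14. The range among the 4 non-addicted rats thus covered the values of the other 8. Members share their libraries, so these counts describe single rats and not a group.

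**Figure D4:**
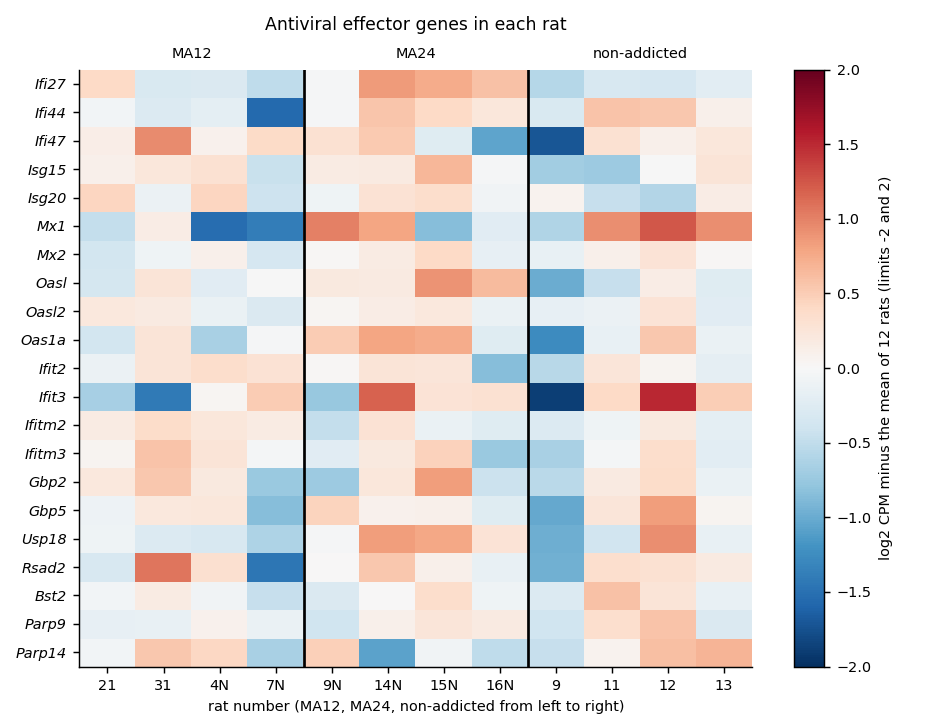
Level of each of the 21 antiviral effectors in each rat, as log2 CPM minus the mean of the 12 rats (colour scale from -2 to 2), with black lines between the groups. Non-addicted rat 9 is blue for nearly all genes and was the lowest of its group for 18 of the 21, while rat 12 was the highest for 12.

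Some effectors show this clearly. *Rsad2* encodes viperin, an enzyme that makes a chain-terminating nucleotide, and had 19, 52, 61 and 44 counts in non-addicted rats, 38, 104, 54 and 12 in MA12 and 47, 60, 42 and 34 in MA24. *Ifit3*, which binds other IFIT proteins that hold viral RNA, ranged from 7 counts in rat 9 to 115 in rat 12. *Gbp5*, a GTPase of the guanylate-binding family, ranged from 17 to 85 counts in the same rats, and *Usp18* from 24 to 120. The totals of the libraries of rats 9 and 12 were 19043710 and 23718399 reads, and the counts given here are not scaled to them. Rat 7N had the lowest total of all, 17908962. These rats also differed in markers of other cells, with a summed endothelial level of 602 CPM in rat 9, 663 in rat 12 and 824 in rat 7N. The summed microglial level was 478 CPM in rat 9, the lowest of all rats, 565 in rat 12 and 574 in rat 7N. *Ttr*, a marker of choroid plexus, had 329 counts in rat 9 and 0 to 17 in the other rats. The part of such differences in the result was not tested.

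Of 117 further symbols of the pathway, 102 were in the table. The interferon genes themselves were at or near 0, with *Ifnb1*, *Ifng* and *Ifnk* at 0 counts in all 12 libraries and *Ifna4* at 1 count in 1 rat. A count of 0 allows a level of up to 3 counts, or 0.126 to 0.168 CPM per library, and this covers counting error alone. In MA24 against MA12, 82 of these genes were tested and 1 was called, with 4 higher and 3 lower at an unadjusted p below 0.05 (8.54%). In non-addicted against MA12 81 were tested, 0 were called by edgeR's test and 6 had an unadjusted p below 0.05 (7.41%). In non-addicted against MA24 79 were tested, 1 was called lower, and 8 had an unadjusted p below 0.05 (10.1%). Each of these unadjusted shares lies below that of all genes tested.

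*Oas1b*, a rodent relative of the 2′-5′ oligoadenylate synthetases, was the gene called higher in MA24 than in MA12. It had 130, 173, 134 and 108 counts in MA12, 300, 219, 268 and 140 in MA24 and 141, 179, 229 and 154 in non-addicted rats. All MA24 rats lay above all MA12 rats in log2 CPM, with a 1.79-fold difference (log2 fold change 0.84, SE 0.20, adjusted p = 0.0205, edgeR). The call was lost without rat 21 (adjusted p = 0.0604), without rat 15N (adjusted p = 0.0719) and in both fits that took the type of number into account (edgeR). *Oas1a*, its paralog among the members, had a log2 fold change of 0.70 ± 0.38 (SE, adjusted p = 0.263, edgeR), and reads may be shared between near-identical copies of this family.

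*Lgals9* encodes galectin-9, a sugar-binding protein that interferon gamma induces in endothelium. It had 323, 343, 417 and 331 counts in non-addicted rats, 466, 657, 495 and 480 in MA24 and 445, 461, 434 and 282 in MA12. Every non-addicted rat lay below every MA24 rat, at 1.52-fold lower (log2 fold change -0.60, SE 0.14, adjusted p = 0.0497, edgeR), and the call was lost in 10 of 15 alternatives. *RT1-A1*, a classical MHC class I heavy chain, had 133, 190, 183 and 172 counts in non-addicted rats, 340, 281, 194 and 439 in MA24 and 203, 443, 206 and 199 in MA12. Its log2 fold change of -0.92 ± 0.21 (SE) against MA24 had an adjusted p of 0.0509 (edgeR), and 5 of 15 alternatives called it, with reads of the many RT1 copies possibly shared. Another copy, *RT1-CE16*, had 244, 2, 32 and 329 counts in non-addicted rats, 385, 7, 4 and 354 in MA24 and 6, 404, 21 and 1 in MA12. The MA12 and MA24 rats high for it (31, 9N and 16N) had the highest *RT1-A1* counts, which did not hold among the non-addicted rats. The part of such differences between rats was not tested. *Jak2*, a kinase of the interferon gamma receptor, was at 0.35 ± 0.10 (log2 fold change and SE, adjusted p = 0.109, edgeR) in non-addicted against MA24. *Irf8*, a factor of microglia and other myeloid cells, was at -0.42 ± 0.13 (adjusted p = 0.180, edgeR) in non-addicted against MA12. *Cxcl11*, a chemokine that attracts T cells, had 0, 18, 30 and 6 counts in non-addicted rats and between 0 and 3 in each of the other 8. Its log2 fold change in non-addicted against MA24 was 3.87, on few reads, and it was not called by edgeR's test. Over the 13 alternatives that tested it, the log2 fold change lay between 3.52 and 4.27, and 3 of them called it. Rat 9 again had the lowest value of its group.

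Markers of vessels and of the ventricle wall moved with the comparisons of non-addicted rats. The summed level of 12 endothelial markers was 736 to 912 CPM in MA12, 857 to 1032 in MA24 and 602 to 875 in non-addicted rats. Of the 11 tested, 3 were called lower in non-addicted than in MA24 rats (*Cldn5*, *Kdr* and *Egfl7*). There, 9 of the 11 had an unadjusted p below 0.05, all lower (81.8%, against 17.5% of all genes tested), and 6 lay apart. In MA24 against MA12, 0 of the 11 were called by edgeR's test, with 1 at an unadjusted p below 0.05. Mural and fibroblast markers, of which *Col1a2* was at 0 in all libraries, summed to 194 to 291 CPM in MA12, 178 to 214 in MA24 and 138 to 165 in non-addicted rats, with 2 of 12 called lower in MA24 than in MA12. In non-addicted against MA12, 3 of the 12 mural and fibroblast markers and 2 of the 11 endothelial ones (*Kdr* and *Egfl7*) were called lower, and 10 and 6 of them had an unadjusted p below 0.05, all lower. In non-addicted against MA24, 0 of the 12 mural and fibroblast markers were called by edgeR's test, with 7 lower at an unadjusted p below 0.05. Markers of choroid plexus and ependyma summed to 29.0 to 79.6 CPM in MA12, 30.8 to 49.5 in MA24 and 45.0 to 111 in non-addicted rats. In non-addicted against MA24, 2 of 8 were called higher, 7 had an unadjusted p below 0.05 (87.5%), all higher, and 4 lay apart. Microglial markers summed to 574 to 657, 589 to 721 and 478 to 641 CPM in the same order, and lymphocyte markers to 17.5 to 19.8, 17.2 to 20.1 and 17.6 to 22.5 CPM. The values of *Ifi27*, *Lgals9* and *RT1-A1* lay lower in the non-addicted than in the MA24 rats, as the endothelial sums did on the whole, and the part of the cell types in these results was not tested.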

How the data were processed

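RNA was sequenced from the striatum of 12 rats. Per the methods and the submitters' processing notes, the authors prepared poly-A libraries with a kit that does not mark strand, trimmed reads with cutadapt 1.18, aligned them with STAR 2.7.0e to rn6, counted them per gene with featureCounts (HTSeq 0.12.4 is also listed) and deposited raw counts without normalization. How counting treated strand and reads with several positions is not given in the sources used here, so overlapping genes and paralogs (*Oas1a*, *Ifitm2* and *Ifitm3*, *Gbp2*, *RT1* genes) are uncertain.

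Each pair of groups was fitted alone, after removing genes whose mean count over its 8 libraries did not exceed 4 and then the 15% least variable in log2 CPM. Counts were scaled by TMM and tested with edgeR 4.0.16 (R 4.3.3) by glmQLFit and glmQLFTest, with Benjamini-Hochberg adjustment over all genes tested and calls at an adjusted p below 0.05 and a fold change of at least 1.5. The SE of a log2 fold change was derived from that test, as the absolute log2 fold change divided by the square root of the F statistic. For levels in log2 CPM, 2 was the prior count. For single genes, exact two-sided permutation tests were run (scipy 1.17.1). The quasi-likelihood, likelihood ratio and DESeq2 fits were tested on simulated data of 1 comparison. The labels give all libraries the same batch. They do not say what the N in a rat number stands for, and it was examined as a possible technical difference. Other settings tried were the likelihood ratio test, DESeq2 1.42.0, RLE scaling, changed or absent filters, a fit to the 3 groups jointly, leaving out single rats, and the type of rat number. The members and lists were chosen with earlier results of these data known. Genes given by rat were those called, those at an unadjusted p below 0.05 with groups apart, the member of each role with the most counts and, among other pathway genes, those called and the 6 with the smallest p. *Irf7*, *Mx1*, *Rsad2*, *Ifit3* and *Gbp5* were added after their values were seen. *Tap2* and *RT1-CE16* are also given by rat, outside these rules. Promoter sequences are from RefSeq (GRCr8), and no coordinates of the rn6 build were used.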

Additional observations from a re-analysis of the deposited data

Results flagged for a closer look

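In each group of 4 rats, a rat was singled out where its gap to the nearest other rat took up nearly the whole range of the group (Dixon's ratio). Of 153 combinations of gene and group, 7 were singled out, and chance gives about 1 in 20, or 7.65. Non-addicted rat 9 was the lowest of its group for 4 of them, namely *Irf9* (ratio 0.83, 200 counts against 285 to 358 in the other rats), *Ifi47* (0.894, 7 against 32 to 37), *Mx1* (0.83, 5 against 18 to 29) and *Rsad2* (0.879, 19 against 44 to 61). MA12 rat 7N was the lowest for *Ifi44* (0.858, 25 counts against 80 to 98). MA12 rat 4N was the highest for *Parp9* (0.855, 141 counts against 101 to 134). MA24 rat 15N was the lowest for *Cxcl11* (0.845), where it had 0 counts and the other 3 rats had 1 each, which is within counting error.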

How the results depend on the processing

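Fold changes were recomputed for 16 combinations of gene and comparison, and none of these changed direction under the alternatives run. For MA24 against MA12, the 2 members called were 1 when each library had to reach 10 counts (*Irf3*), 1 with no filter on variance (*Irf3*), 1 with a term for the type of number (*Ifi27*), and 0 to 2 when each rat was left out, with 0 without rat 4N, 14N or 16N and 1 without rat 31 or 15N. The 7 members at an unadjusted p below 0.05 were 4 to 9 when each rat was left out, with 4 without rat 7N. For non-addicted against MA12, 0 members were called under each alternative run, and the 4 at an unadjusted p below 0.05 were 1 to 8 when each rat was left out (8 without rat 9, 2 without rat 11, 1 without rat 12). For non-addicted against MA24, the 1 member called was 2 by DESeq2 and 2 by the likelihood ratio test (*Ifi27* and *Dhx58*), 0 when each library had to reach 10 counts, 0 with no filter on variance, 0 when the 3 groups were fitted jointly, and 0 to 1 when each rat was left out (0 without rat 12 or 15N). The 5 at an unadjusted p below 0.05 were 4 to 6 when each rat was left out. Over all genes, the 264 genes called in MA24 against MA12 ranged from 47 (term for the type of number) to 436 (without rat 9N), the 27 in non-addicted against MA12 from 4 to 93, and the 49 in non-addicted against MA24 from 0 to 187. The causes were not tested. The adjusted p of *Irf3* in MA24 against MA12 ranged from 1.85e-04 to 0.0682 over 17 alternatives, with its call lost in 4, and that of *Ifi27* from 0.00205 to 0.0703, with its call lost in 8. For *Ifi27* in non-addicted against MA24 it ranged from 6.83e-06 to 0.0669 over 15 alternatives, with its call lost in 5. The levels of 30 combinations of gene and group moved by less than 1 SD with a prior count of 0.5, and likewise without TMM factors. No paired analysis was possible because the groups share no rat numbers. Members with a mean count below 50 were limited by depth.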
